A study of Mus musculus with 16 samples.

Results

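The 7 genes of the CDK inhibitor families were followed in mouse mammary organoids that carried a PIK3CA mutation, a HER2 mutation, both or neither. They were matched by symbol among the 55487 gene identifiers of the count table: the 3 CIP/KIP genes Cdkn1a, Cdkn1b and Cdkn1c, and the 4 INK4 genes Cdkn2a, Cdkn2b, Cdkn2c and Cdkn2d. All 7 were found, and all 7 were among the 24252 genes with enough counts to be tested. Organoids are small cell clusters grown in gel or suspension that keep part of the organization of their tissue.

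The RNA sequencing samples were WT (n = 3, replicates from normal breast), PIK3CA Mutation (n = 4), HER2 Mutation (n = 4) and HER2 and PIK3CA Mutation (n = 5, here the double mutant), the mutants all labelled as tumor breast. The series title names the alleles as HER2V777L and PIK3CAH1047R and sets the question of how they act on p21, CDK4/6 and cyclin D1. The submitters describe the animals as mutated mice, while the transgene design, the promoter that drives it, age and strain are not given in the sources used here. Every culture received murine EGF at 50 ng/ml and medium conditioned with Rspo1 and Noggin, so the growth-factor input was the same in all groups. The labels do not say that each sample came from its own mouse, and p-values then measure the spread between these samples, which may be technical.

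CDK inhibitors are small proteins that restrain the kinases which drive cells from G1 into S phase. INK4 proteins bind the monomeric CDK4 and CDK6 and keep them from pairing with D-type cyclins. CIP/KIP proteins bind whole cyclin-CDK complexes: they block cyclin E-CDK2 and, at the same time, can help cyclin D-CDK4/6 complexes to assemble. In the mammary gland and its tumors, p27 is held down by growth-factor signals, p21 responds to p53 and to stress, and the INK4 locus responds to oncogene activity and to loss of the retinoblastoma pathway.

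The start sites of Cdkn1a, Cdkn2a and Cdkn2b are shown because these are the members whose transcripts rose in the comparisons that follow. RefSeq windows on GRCm38.p6 were matched for 6 of the 7 members, 9 windows in all, each from 250 to 36 bases before an annotated start. Capitals mark matches to short words searched on both strands: the p53 half-site by its name, the GC box GGGCGG, the E2F words TTTCGCGC, TTTGGCGC, TTTCCCGC and TTTGCCGC, the cAMP response element TGACGTCA, TATAAA, the FOXO word GTAAACA and the E box CACGTG. The windows are Cdkn1a upstream start at chr17:29090729-29090943 on the plus strand, Cdkn1a inner start at chr17:29093519-29093733 on the plus strand, Cdkn2a upstream start at chr4:89294655-89294869, Cdkn2a inner start at chr4:89282228-89282442 and Cdkn2b at chr4:89311068-89311282, the last 3 on the minus strand and all written 5′ to 3′.
Cdkn1a upstream start: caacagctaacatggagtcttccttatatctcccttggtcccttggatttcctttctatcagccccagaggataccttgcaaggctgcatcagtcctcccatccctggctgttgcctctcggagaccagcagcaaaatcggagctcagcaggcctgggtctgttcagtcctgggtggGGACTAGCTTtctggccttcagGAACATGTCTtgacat
Cdkn1a inner start: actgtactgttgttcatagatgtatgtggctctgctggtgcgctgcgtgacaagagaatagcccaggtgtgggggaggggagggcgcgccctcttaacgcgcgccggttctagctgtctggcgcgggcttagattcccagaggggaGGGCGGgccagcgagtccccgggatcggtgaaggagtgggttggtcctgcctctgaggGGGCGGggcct
Cdkn2a upstream start: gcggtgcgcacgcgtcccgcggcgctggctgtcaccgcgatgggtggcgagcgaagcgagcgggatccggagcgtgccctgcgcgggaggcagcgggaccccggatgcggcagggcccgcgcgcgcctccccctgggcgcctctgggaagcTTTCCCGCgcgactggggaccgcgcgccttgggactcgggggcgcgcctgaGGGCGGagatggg
Cdkn2a inner start: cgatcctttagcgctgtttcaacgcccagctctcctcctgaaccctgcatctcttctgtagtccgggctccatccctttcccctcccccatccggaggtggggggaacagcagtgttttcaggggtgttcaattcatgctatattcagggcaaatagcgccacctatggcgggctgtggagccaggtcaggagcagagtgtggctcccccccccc
Cdkn2b start: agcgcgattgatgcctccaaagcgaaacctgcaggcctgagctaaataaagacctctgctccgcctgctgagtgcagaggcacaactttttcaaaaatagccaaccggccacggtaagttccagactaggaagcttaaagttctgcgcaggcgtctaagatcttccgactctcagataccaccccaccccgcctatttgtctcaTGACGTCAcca

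The upstream Cdkn1a window held a pair of p53 half-sites, GGACTAGCTT and GAACATGTCT, with 12 bases between them. They lay 73 to 64 and 51 to 42 bases before the start. The window stops 36 bases before the start, shortly after the second half-site. Half-sites that run past this end were not searched, so another pairing of GAACATGTCT would be missed. A pair of half-sites with at most 13 bases between them was in 0.0609% of the 32851 RefSeq windows of 215 bases, and a single half-site in 6.19%. The inner Cdkn1a window held 2 GC boxes, a word found in 27.7% of windows. Cdkn2a has separate first exons for its products, p19ARF from the upstream start and p16INK4a from the inner one. The upstream window held the E2F word TTTCCCGC, 99 to 92 bases before the start (any of the E2F words: 1.55% of windows), and 1 GC box. No searched word was found in the inner Cdkn2a window. The Cdkn2b window held TGACGTCA, 46 to 39 bases before the start (1.1% of windows). Members whose windows are not shown held some of the same words. The Cdkn2d window held a p53 half-site, GGGCTTGCCT, 102 to 93 bases before the start, and 2 GC boxes. The Cdkn1b window held 1 GC box. Of the Cdkn2c windows, 1 held 2 GC boxes and the other no searched word. A match describes these letters, and binding was not measured.

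Sequencing gave 45545182 to 64168308 counts per sample. Levels are CPM, the usual depth-scaled counts, with library sizes scaled by edgeR's TMM factors. Epcam, an epithelial adhesion gene, lay between 479 and 699 CPM in every sample, and the 8 epithelial markers summed to 2199 to 2439 CPM in WT, 3164 to 4012 in PIK3CA mutants, 1963 to 3461 in HER2 mutants and 2882 to 5811 in double mutants. Markers of other cells differed with genotype. The 13 macrophage and myeloid markers summed to 1111 to 4049 CPM in WT, 610 to 774 in PIK3CA mutants, 272 to 456 in HER2 mutants and 240 to 425 in double mutants. Against WT, 12 of the 13 were lower in PIK3CA mutants, 9 in HER2 mutants and 12 in double mutants, and 8 were lower in double than in HER2 mutants. Ptprc, which marks all leukocytes, had 435 to 2592 counts in WT, 145 and 94 in HER2 mutant replicates 1 and 2, and 2 to 7 in the other mutant samples. The 10 fibroblast markers summed to 435 to 2178 CPM in WT, 126 to 612 in PIK3CA mutants, 46.5 to 758 in HER2 mutants and 53.9 to 231 in double mutants, with 1, 3 and 7 of 10 lower than in WT. The 9 basal and myoepithelial markers summed to 515 to 1059 CPM in WT, 525 to 1395 in PIK3CA mutants, 265 to 974 in HER2 mutants and 566 to 1041 in double mutants. Of these 9, 1 was lower than in WT in PIK3CA mutants, 4 in HER2 mutants and 1 in double mutants, where 1 was higher, and 2 were higher in double than in HER2 mutants. The part of all these markers in the results on CDK inhibitors was not tested, and in bulk samples fewer cells of a type and less RNA per cell cannot be told apart. Normal and tumor source cannot be told apart from genotype in any comparison with WT.

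Double mutant replicates 2 and 3 stood apart from replicates 1, 4 and 5. On the second principal component (14.7% of the variance), they lay at -35.6 and -10.9, the others between 33.6 and 47.8. Both were above the other 3 in 23.2% of the tested genes and both below in 24.3%. Cdkn1a, Cdkn1b, Cdkn1c and Cdkn2d were among the former and Cdkn2a among the latter, while Cdkn2b and Cdkn2c overlapped. The main values of the members in double mutants are therefore also given without these 2 samples.

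Cdkn1a, which encodes p21, rose with the HER2 mutation and with both mutations. The gene (ENSMUSG00000023067, chromosome 17, 29090976 to 29100727, plus strand, GRCm38) had 17.8, 51.4 and 25.6 CPM in WT replicates 1 to 3. PIK3CA mutants had 73.7, 85.1, 65.7 and 157 CPM. HER2 mutants had 263, 68.8, 209 and 57.7 CPM. Each of these 8 mutant samples was above all WT samples, and the HER2 mutants fell into a high pair and a low pair. Double mutants had 148, 331, 324, 158 and 167 CPM, with replicates 2 and 3 well above the others. The means ± SD were 31.6 ± 17.6 CPM in WT (n = 3), 95.2 ± 41.6 in PIK3CA mutants (n = 4), 150 ± 102 in HER2 mutants (n = 4) and 226 ± 93.2 in double mutants (n = 5). In that order of genotypes only WT and PIK3CA mutants had ranges that did not overlap their neighbour's.

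Against WT, Cdkn1a was 7.14-fold higher in double mutants (2.84 on the log2 scale, SE 0.567, edgeR adjusted p 0.00418). Without double mutant replicates 2 and 3 the log2 fold change was 2.32 (adjusted p 0.0222), and it passed the threshold without any single replicate (2.55 to 3.38). In HER2 mutants Cdkn1a was 4.74-fold higher (2.24, SE 0.562, adjusted p 0.0204). That call was lost without WT replicate 1 (1.96, adjusted p 0.0964) or 3 (2.11, adjusted p 0.103) and in a fit of only these 7 samples (2.28, adjusted p 0.109). PIK3CA mutants had a log2 difference of 1.59 from WT (SE 0.546, adjusted p 0.125), with all 4 samples above all 3 WT samples. This passed with DESeq2 (1.60, adjusted p 0.0364) and in a fit of only the groups compared (1.59, adjusted p 0.0315).

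Between the mutant genotypes Cdkn1a did not pass the threshold. The log2 difference was 0.59 between double and HER2 mutants (95% interval -0.39 to 1.57), 1.24 between double and PIK3CA mutants (0.25 to 2.24, adjusted p 0.28) and 0.65 between HER2 and PIK3CA mutants (-0.37 to 1.68). Without double mutant replicates 2 and 3 the first 2 differences were 0.08 and 0.73. Cdkn1a overlaps AC167363.2, an annotated transcript on the opposite strand that held 4673 counts over the 16 samples against 113112 for Cdkn1a. Whether counting used the strand is not given in the sources used here.

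**Figure D1:**
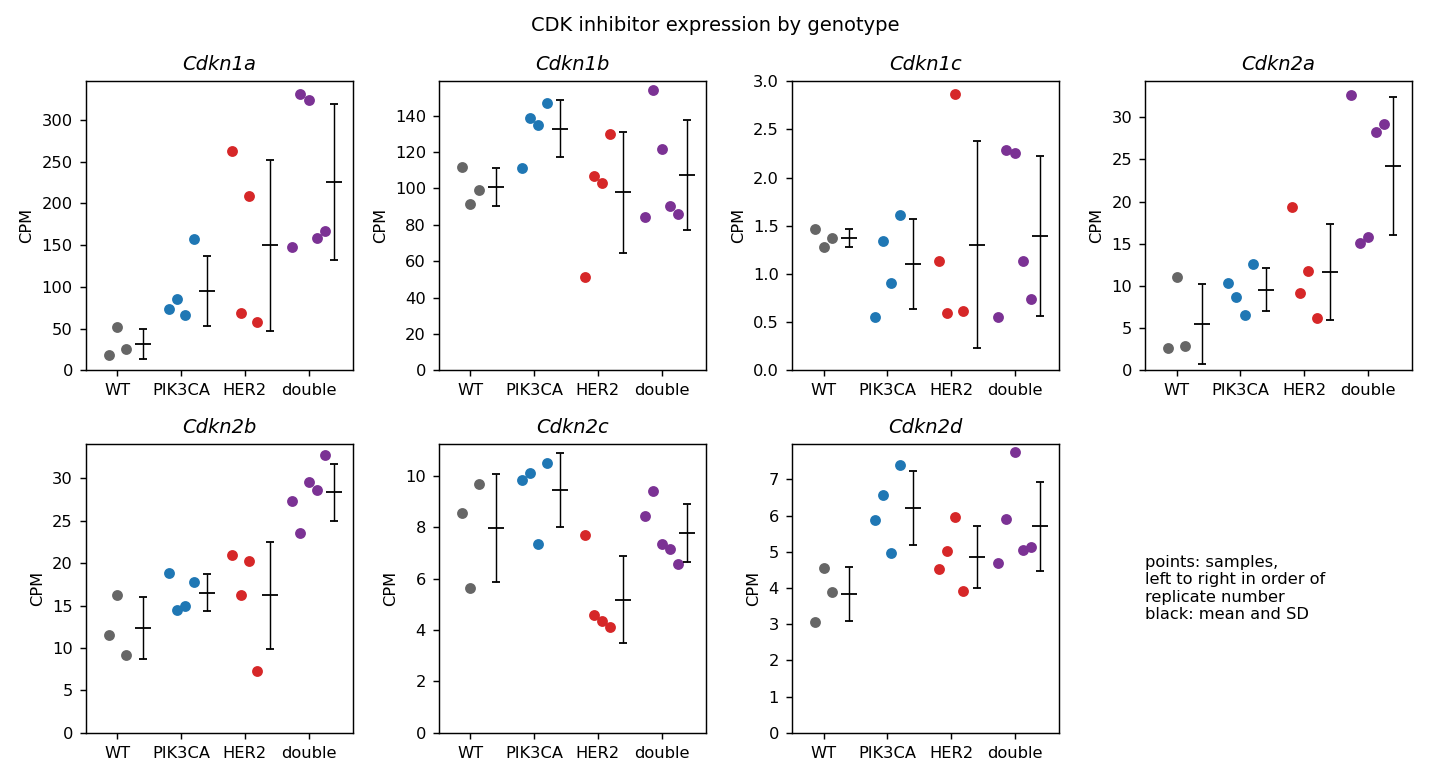
Expression of the 7 CDK inhibitor genes in CPM (vertical axes, from 0) in each organoid sample by genotype, with the mean and SD in black; replicates run left to right within a genotype. Cdkn1a lies between 17.8 and 51.4 CPM in WT and between 148 and 331 CPM in double mutants, and Cdkn2b in double mutants, at 23.6 to 32.8 CPM, lies above all other samples.

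Cdkn1b, which encodes p27, did not change between any pair of genotypes by the threshold. The gene (ENSMUSG00000003031, chromosome 6, 134920401 to 134925513, plus strand) had 112, 91.6 and 99 CPM in WT and 111, 139, 135 and 147 CPM in PIK3CA mutants. HER2 mutants had 51.5, 107, 103 and 130 CPM, and double mutants 84.5, 154, 122, 90.5 and 86.2 CPM. All genotypes overlapped, with HER2 mutant replicate 1 the lowest sample and the same sample the highest of its genotype for Cdkn1a. The log2 difference from WT was 0.40 in PIK3CA mutants (95% interval -0.16 to 0.96), -0.05 in HER2 mutants (-0.60 to 0.51) and 0.09 in double mutants (-0.44 to 0.62). The first passed in a fit of only WT and PIK3CA mutants (0.40, adjusted p 0.0441). The sign was not settled for HER2 mutants, where upper-quartile scaling gave 0.01, nor for double mutants, where the value was -0.21 without replicates 2 and 3. Against PIK3CA mutants, double mutants differed by -0.31, and by -0.61 without those replicates (adjusted p 0.235).

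Cdkn1c, which encodes p57 and is an imprinted gene expressed from the maternal copy, was the least expressed member. The gene (ENSMUSG00000037664, chromosome 7, 143458339 to 143461050, minus strand) had 30 to 129 counts per sample. Its level was 1.28 to 1.47 CPM in WT, 0.557 to 1.61 in PIK3CA mutants, 0.598 to 2.87 in HER2 mutants and 0.55 to 2.29 in double mutants. WT samples lay inside the range of each mutant genotype, and the spread was widest in HER2 mutants, with a coefficient of variation of 82.4% against 6.84% in WT. The log2 difference from WT was -0.32 (SE 0.581) in PIK3CA mutants, -0.08 (SE 0.582) in HER2 mutants and 0.02 (SE 0.556) in double mutants. In double mutants it was -0.77 without replicates 2 and 3, which had 2.29 and 2.26 CPM against 0.55 to 1.13 in the others.

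Cdkn2a and Cdkn2b, neighbours on chromosome 4, rose in double mutants against WT. Cdkn2a (ENSMUSG00000044303, 89274471 to 89294653, minus strand) is counted over p16INK4a, a CDK4/6 inhibitor, and p19ARF, which stabilizes p53 by holding back Mdm2, and gene counts do not separate them. It had 2.6, 11 and 2.82 CPM in WT and 10.3, 8.72, 6.6 and 12.6 CPM in PIK3CA mutants. HER2 mutants had 19.4, 9.19, 11.8 and 6.14 CPM, and double mutants 32.7, 15.1, 15.8, 28.3 and 29.2 CPM. Double mutants were above all WT and all PIK3CA mutant samples, and WT replicate 2 was 4.22 times as high as the lowest WT sample, inside the range of both single mutants. The same WT sample had the highest Cdkn1a of WT and the lowest summed macrophage markers, 1111 CPM. It also had the highest WT sums of fibroblast markers, 2178 CPM, and of basal and myoepithelial markers, 1059 CPM. The part of these markers in its Cdkn1a and Cdkn2a was not tested.

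Against WT, Cdkn2a was 4.43-fold higher in double mutants (2.15 on the log2 scale, SE 0.504, edgeR adjusted p 0.0113). It lost the threshold without WT replicate 1 (1.81, adjusted p 0.0652) or 3 (1.83, adjusted p 0.0759), and was 2.46 (adjusted p 0.0124) without double mutant replicates 2 and 3. The log2 difference from WT was 0.81 in PIK3CA mutants (SE 0.491, adjusted p 0.447) and 1.09 in HER2 mutants (SE 0.496, adjusted p 0.179). Without WT replicate 2, both passed, at 1.82 (adjusted p 0.0349) and 2.10 (adjusted p 0.0148). Between double and PIK3CA mutants the difference was 1.34 (95% interval 0.42 to 2.27, adjusted p 0.201) and between double and HER2 mutants 1.06 (0.14 to 1.97, adjusted p 0.206). The former passed in a fit of only these 9 samples (1.35, adjusted p 0.0421). These differences were 1.65 (adjusted p 0.12) and 1.37 (adjusted p 0.106) without double mutant replicates 2 and 3.

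Cdkn2b (ENSMUSG00000073802, 89306299 to 89311039, minus strand) encodes p15INK4b, an inhibitor of CDK4/6 known as a target of TGF-beta. It had 11.5, 16.3 and 9.18 CPM in WT, and PIK3CA mutants had 18.9, 14.5, 14.9 and 17.8 CPM. HER2 mutants had 21, 16.2, 20.3 and 7.27 CPM. Double mutants, with 27.3, 23.6, 29.6, 28.6 and 32.8 CPM, were above every other sample. Against WT the gene was 2.3-fold higher in double mutants (1.20 on the log2 scale, SE 0.283, edgeR adjusted p 0.0115). This was lost without WT replicate 1 (1.16, adjusted p 0.0592) or 3 (1.03, adjusted p 0.0847), and was 1.26 (adjusted p 0.0268) without double mutant replicates 2 and 3. The log2 difference of double mutants was 0.81 from HER2 mutants (SE 0.252, adjusted p 0.0959) and 0.78 from PIK3CA mutants (SE 0.252, adjusted p 0.2). The first passed with DESeq2 (0.81, adjusted p 0.0396) and the second in a fit of only the groups compared (0.78, adjusted p 0.0232). In the single mutants the log2 difference from WT was 0.42 with PIK3CA (SE 0.285) and 0.39 with HER2 (SE 0.285).

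Cdkn2c, which encodes p18INK4c, was lower in HER2 than in PIK3CA mutants. The gene (ENSMUSG00000028551, chromosome 4, 109660876 to 109667189, minus strand) had 8.57, 5.62 and 9.69 CPM in WT, and PIK3CA mutants had 9.84, 10.1, 7.33 and 10.5 CPM. HER2 mutants had 7.71, 4.57, 4.36 and 4.11 CPM, and double mutants 8.42, 9.4, 7.34, 7.17 and 6.57 CPM. Of the HER2 mutants, 3 lay below every other sample, while replicate 1 was inside the range of the other genotypes. The fold was 1.82 (log2 fold change -0.86, SE 0.233, edgeR adjusted p 0.048). It lost the threshold in 7 of 8 leave-one-out fits (adjusted p 0.0602 to 0.12), and held without HER2 mutant replicate 1 (-1.12, adjusted p 0.00927). Median-of-ratios and upper-quartile scaling, no low-count filter and a fit of only these groups also ended it. Markers of basal and myoepithelial cells differed in the same comparison, with 5 of 9 lower in HER2 than in PIK3CA mutants, none higher and a median log2 difference of -1.55. Krt5, a basal keratin, had 14.1 to 52 CPM in HER2 mutants and 99.6 to 412 CPM in PIK3CA mutants. HER2 mutant replicate 1 had the highest Cdkn2c of its genotype and the highest sum of these markers. The sum was 974 CPM there against 265 to 390 CPM in the other 3. Krt5 alone did not set this sample apart, with 44.8 CPM against 52 CPM in replicate 3. Of the 8 epithelial markers, 1 was lower in HER2 than in PIK3CA mutants. The part of these markers in the difference of Cdkn2c was not tested. Without HER2 mutant replicate 1, Cdkn2c passed in HER2 mutants against WT (-0.87, adjusted p 0.0233; -0.62, adjusted p 0.129 with all) and in double against HER2 mutants (0.84, adjusted p 0.0426; 0.58, adjusted p 0.172 with all). Without double mutant replicates 2 and 3 the latter was 0.51 (adjusted p 0.25).

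Cdkn2d, which encodes p19INK4d, had its lowest mean level in WT. The gene (ENSMUSG00000096472, chromosome 9, 21288410 to 21291407, minus strand) had 3.06, 4.54 and 3.9 CPM in WT, and PIK3CA mutants had 5.88, 6.57, 4.98 and 7.39 CPM. HER2 mutants had 4.53, 5.01, 5.96 and 3.91 CPM, and double mutants 4.68, 5.92, 7.75, 5.04 and 5.13 CPM. PIK3CA and double mutants lay above all WT samples, HER2 mutants overlapped WT. The log2 difference from WT was 0.69 with the PIK3CA mutation (SE 0.235, adjusted p 0.12), 0.34 with the HER2 mutation (SE 0.234, adjusted p 0.389) and 0.57 with both (SE 0.226, adjusted p 0.113). The first passed with DESeq2 (0.71, adjusted p 0.0358) and in a fit of only those groups (0.70, adjusted p 0.0447). The last was 0.37 (adjusted p 0.343) without double mutant replicates 2 and 3.

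Counted over the 7 genes, none passed in PIK3CA mutants against WT by edgeR's quasi-likelihood test, where 4.52% of all tested genes did. At an unadjusted p under 0.05 there were 2 (16.8% of genes), and 2 passed with DESeq2 and 0 with limma. In HER2 mutants 1 of 7 was higher than in WT (background 4.75% of genes higher), and in double mutants 3 of 7 (5.03% higher). No member passed between double and HER2 mutants (2.5% of genes either way). At an unadjusted p under 0.05 there were 3 (17.8% of genes), with DESeq2 1 and with limma 0. Between double and PIK3CA mutants none passed (0.672% of genes), with 3 at an unadjusted p under 0.05 (12.4% of genes) and 0 with DESeq2 and limma. HER2 against PIK3CA mutants gave 1 of 7, lower (2.2% of genes lower).

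Samples did not overlap with WT, all higher, for 2 members in PIK3CA mutants, 1 in HER2 mutants and 4 in double mutants, against 13.8%, 9.81% and 9.68% of all tested genes. For double mutants this was so of 1 member against HER2 mutants (2.21% of genes higher) and of 2 members against PIK3CA mutants (3.42%). No member was separated between HER2 and PIK3CA mutants (12.5% of genes either way). The median log2 fold change of the members against WT was 0.42 with PIK3CA, 0.34 with HER2 and 0.57 with both mutations, where the median of all tested genes was -0.03, 0.03 and 0.01. Comparisons with WT share the same 3 WT samples. The interaction asks whether the double mutant departs from adding up the log2 differences of both single mutants. It passed for none of the 7 (1.06% of genes), with 0 at an unadjusted p under 0.05 (13.6% of genes) and 0 with DESeq2 and limma. For Cdkn1a it was -1.0 (95% interval -2.48 to 0.48), for Cdkn2a 0.25 (-1.11 to 1.61) and for Cdkn2b 0.39 (-0.41 to 1.19). It was -1.52, 0.56 and 0.45 without double mutant replicates 2 and 3 (adjusted p 0.249, 0.672 and 0.576).

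**Figure D2:**
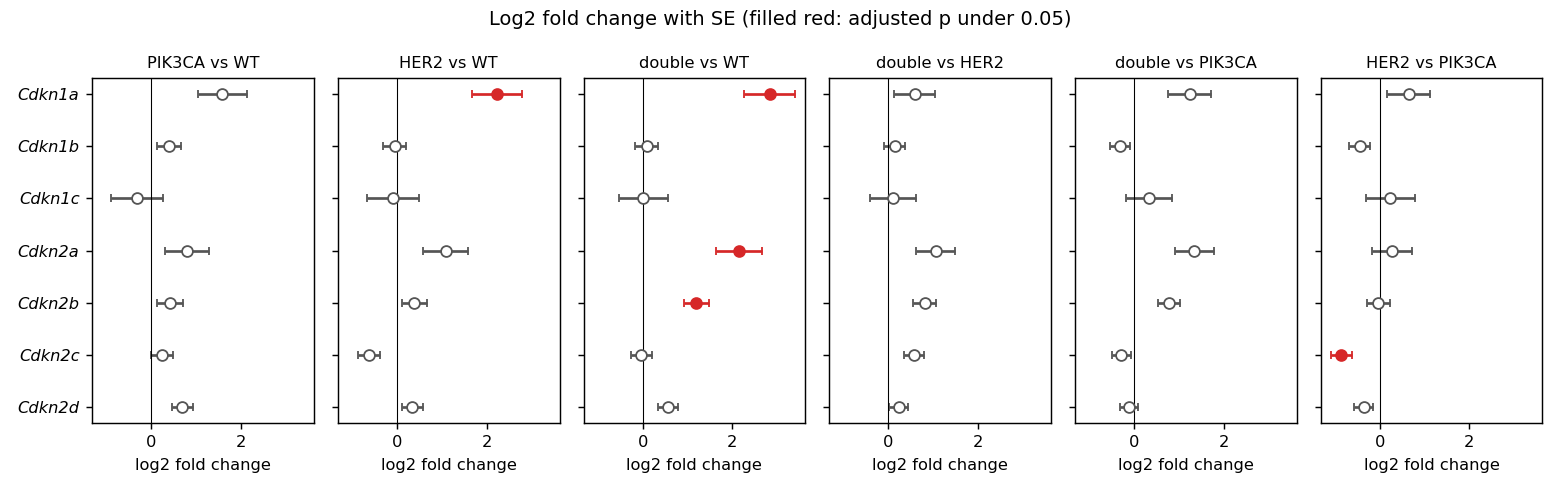
Log2 fold change (horizontal axes) with SE of each member in the 6 pairs of genotypes, first genotype over second; filled red points passed an edgeR adjusted p of 0.05. Against WT, Cdkn1a passes at 2.24 in HER2 and 2.84 in double mutants, Cdkn2a at 2.15 and Cdkn2b at 1.20 in double mutants, and Cdkn2c passes at -0.86 in HER2 against PIK3CA mutants.

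To compare levels between genes, CPM was divided by the exon length in kilobases. On this scale Cdkn1b led in WT with 22.2 ± 2.29 CPM per kilobase (SD, n = 3), 45% of the members' sum, and its range stayed above that of Cdkn1a, at 8.89 ± 4.94. In WT, Cdkn1a, Cdkn2b, Cdkn2a, Cdkn2c and Cdkn2d followed with ranges that overlapped from neighbour to neighbour. PIK3CA mutants had Cdkn1b at 29.2 ± 3.43 and Cdkn1a at 26.8 ± 11.7 CPM per kilobase (SD, n = 4), which overlapped. In HER2 mutants Cdkn1a led with 42.1 ± 28.8 (SD, n = 4), overlapping Cdkn1b at 21.5 ± 7.26. Double mutants had Cdkn1a at 63.5 ± 26.2 (SD, n = 5), and its range was above that of Cdkn1b, at 23.6 ± 6.62. The share of Cdkn1a in the members' sum was 16.9% on average in WT (10.9% to 23.6%) and 45.4% in double mutants (36.6% to 56.4%). In double mutants Cdkn2a and Cdkn2b followed at 20.7 ± 6.99 and 20.4 ± 2.42 CPM per kilobase, and Cdkn1c was last in every genotype, at 0.541 to 0.683.

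**Figure D3:**
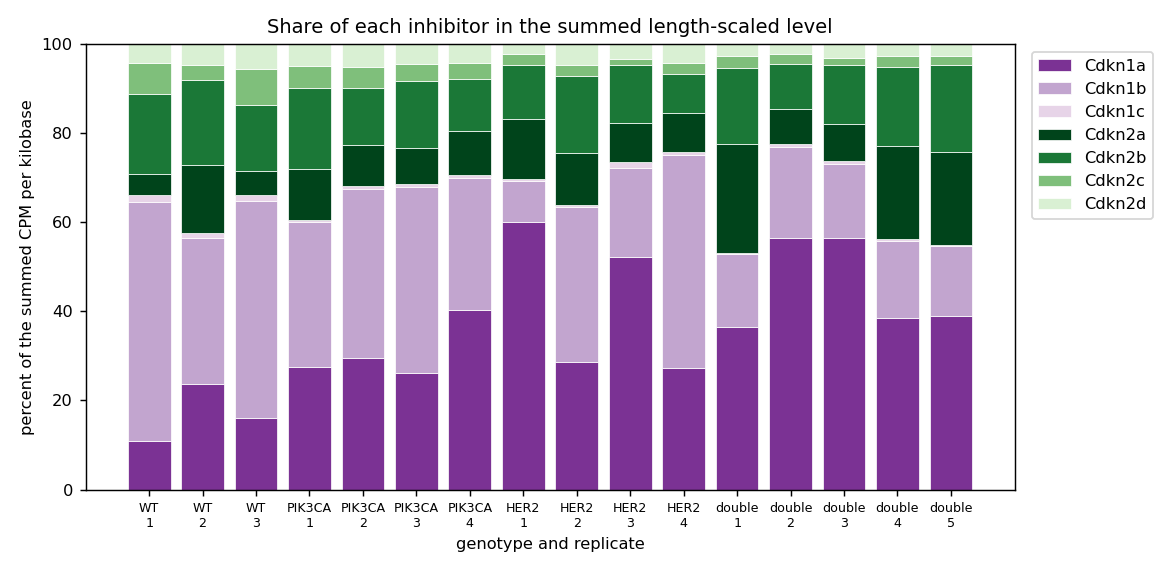
Share of each CDK inhibitor gene in the summed CPM per kilobase (vertical axis, percent) in each sample. Cdkn1b holds 32.8% to 53.5% in WT, and Cdkn1a 36.6% to 56.4% in double mutants.

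The relation of Cdkn1a to Erbb2, the mouse HER2 gene, was examined sample by sample. Counts per gene do not tell reads of the mutant HER2 allele from reads of the normal mouse gene. Erbb2 also overlaps Mien1 and Gm25048 on the opposite strand. These held 17521 and 102 counts over the 16 samples against 1291300 for Erbb2. Erbb2 (ENSMUSG00000062312) had 145 to 171 CPM in WT, 149 to 188 in PIK3CA mutants, 2696 to 4632 in HER2 mutants and 1499 to 2751 in double mutants, so that samples with and without the HER2 mutation formed separate clusters and no pooled correlation is given. Among the 7 samples without the HER2 mutation, the correlation of log2 CPM was r = 0.52 (exact permutation p 0.235, adjusted over 3 relations 0.353) and Spearman's rho = 0.43 (exact permutation p 0.354, adjusted 0.53). Without the 2 samples farthest from the median of Erbb2 it was r = 0.49 (exact permutation p 0.442, n = 5). These 7 samples pool WT and PIK3CA mutants, and the 9 that follow pool HER2 and double mutants. Each r therefore also holds differences between genotype means. Among the 9 samples with the HER2 mutation, r was 0.00 (exact permutation p 0.997, adjusted 0.997) and rho 0.23 (exact permutation p 0.552, adjusted 0.552), and r was -0.07 without the 2 farthest samples. HER2 mutants had more Erbb2 than double mutants (log2 difference of double from HER2 mutants -0.83, SE 0.207, edgeR adjusted p 0.0483, lost in 6 of 9 leave-one-out fits at 0.105 at most) and a lower mean of Cdkn1a.

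Once each genotype's mean was subtracted, the deviations of Cdkn1a and Erbb2 in the 16 samples had r = 0.57 (permutation p 0.0391, adjusted 0.117) and rho = 0.44 (permutation p 0.12, adjusted 0.359). Leaving out double mutant replicates 2 and 3, the farthest on Erbb2, gave r = 0.42 (permutation p 0.436). With all 16 samples the relation already missed the threshold after adjustment. These 2 replicates had 331 and 324 CPM of Cdkn1a with 2751 and 2705 CPM of Erbb2, where replicates 1, 4 and 5 had 148 to 167 CPM of Cdkn1a with 1499 to 1649 CPM of Erbb2. In HER2 mutants, Erbb2 was 3385 and 4632 CPM in the samples with high Cdkn1a (263 and 209 CPM) and 2696 and 3686 CPM in those with low Cdkn1a (68.8 and 57.7 CPM). The low-Cdkn1a pair therefore included a sample with more Erbb2 than 1 of the high-Cdkn1a pair.

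**Figure D4:**
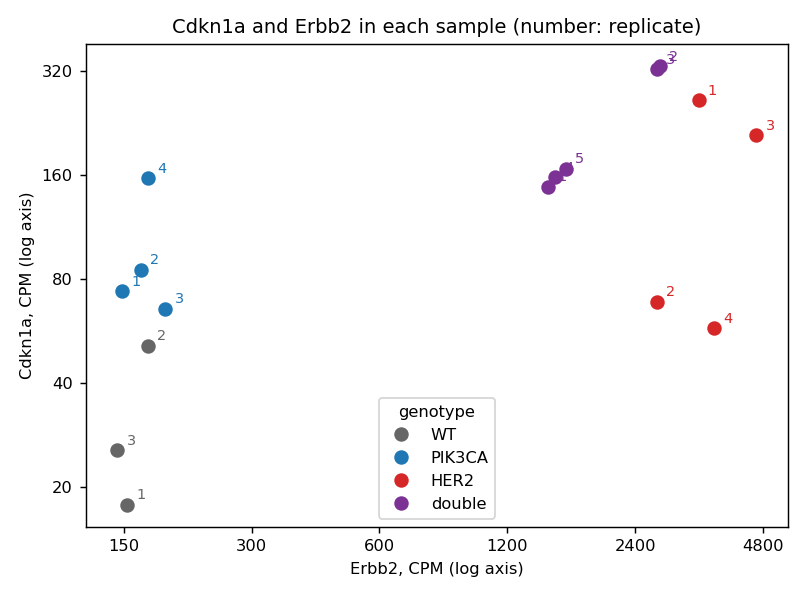
Cdkn1a against Erbb2 in CPM, both on log axes, with samples colored by genotype and numbered by replicate. Samples with and without the HER2 mutation are separated by Erbb2, at 1499 CPM and above or 188 CPM and below, and Cdkn1a ranges from 57.7 to 331 CPM among the former.

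Among each other, the members were described by the correlation of log2 CPM over the 16 samples, which share genotype differences. Cdkn2a and Cdkn2b had r = 0.87, Cdkn1a had r = 0.82 with Cdkn2a, 0.77 with Cdkn2b and 0.70 with Cdkn2d, and Cdkn1b had r = -0.12 with Cdkn1a. Of 11745 genes compared, those most like Cdkn1a were Rangap1 (r = 0.966), Gtse1 (0.964) and Eif2d (0.959). Gtse1, a G2 and S phase protein known to bind p53, had mean levels of 3.45, 9.11, 22.2 and 26.4 CPM in WT, PIK3CA, HER2 and double mutants. Cdkn2a was most like Fbxw9 (0.957), Rac3 (0.938) and Ccnd1 (0.902), and Cdkn2b like Sdc1 (0.889), Sesn2 (0.882) and Shb (0.882). Cdkn2d was most like Pfkp (0.925), Gja1 (0.920) and Car9 (0.914). Pfkp is a glycolytic enzyme and Car9 a carbonic anhydrase known as a hypoxia target. Cdkn1b was most like Cebpd (0.914), Cdkn1c like Slc48a1 (0.914) and Cdkn2c like Gnpda1 (0.878).

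The partners and targets of these inhibitors were counted in the same fit. Of all tested genes, 1.49% were higher and 3.03% lower than WT in PIK3CA mutants, 4.75% and 5.63% in HER2 mutants and 5.03% and 6.72% in double mutants. The list of D and E cyclins and their kinases had 13 genes, which also include Ccna2, Ccnh, Cdk7, Cdc25a and Cdc37. Of these 13, 2 were higher than in WT in PIK3CA mutants, 5 in HER2 mutants and 6 in double mutants. None was lower, and the medians were 0.40, 0.21 and 0.48 (log2). Ccnd1, which encodes cyclin D1, had 55.5 to 120 CPM in WT, 176 to 344 in PIK3CA mutants, 162 to 512 in HER2 mutants and 297 to 545 in double mutants. Every mutant sample exceeded every WT sample. The log2 fold change of Ccnd1 was 1.71 (SE 0.413, edgeR adjusted p 0.0256), 1.64 (SE 0.412, adjusted p 0.0208) and 2.40 (SE 0.417, adjusted p 0.00165). Ccnd3, the cyclin D3 gene, was higher in PIK3CA (0.89, SE 0.149, adjusted p 0.00254), HER2 (0.69, SE 0.148, adjusted p 0.00918) and double mutants (0.79, SE 0.143, adjusted p 0.00214). Ccne1, the cyclin E1 partner of CDK2, was higher in HER2 (2.02, SE 0.443, adjusted p 0.0104) and double mutants (2.08, SE 0.433, adjusted p 0.00535). In leave-one-out fits the calls of all 3 in double mutants and of Ccnd3 in PIK3CA mutants held. Ccnd3 in HER2 mutants was lost without WT replicate 3 (adjusted p 0.0527). Ccnd1 was lost without WT replicate 1 or 3 in both single mutants (adjusted p up to 0.164 with PIK3CA and 0.115 with HER2) and, in PIK3CA mutants, without replicate 1, 2 or 4. Ccne1 in HER2 mutants was lost without WT replicate 1 (adjusted p 0.0572). Without WT replicate 1 or 3 the count of the list fell to 1 in PIK3CA, 2 in HER2 and 3 in double mutants, and in PIK3CA mutants it was also 1 without replicate 1, 2 or 4. DESeq2 called 4 in PIK3CA mutants. Fits of only the groups compared called 6 there and 0 in HER2 mutants.

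Pocket proteins restrain E2F factors until cyclin-CDK complexes phosphorylate them. Of 13 pocket protein and E2F genes, 1 was higher and 2 lower in HER2 mutants than in WT, 2 were lower in double mutants and none passed in PIK3CA mutants. Rb1 was lower in HER2 mutants than in WT (148 ± 60 against 575 ± 29.5 CPM, SD, n = 4 and 3, log2 fold change -1.96, SE 0.239, edgeR adjusted p 0.000375). In double mutants it had 341 ± 55.9 CPM (SD, n = 5), a difference of -0.75 from WT (SE 0.224, adjusted p 0.039) and of 1.20 from HER2 mutants (SE 0.215, adjusted p 0.00961). HER2 mutants were also below PIK3CA mutants (-1.29, SE 0.224, adjusted p 0.00586). Rbl2, a second pocket protein gene, was also lower in HER2 (-0.57, SE 0.135, adjusted p 0.0151) and double mutants (-0.65, SE 0.128, adjusted p 0.00365). E2f1 was higher in HER2 mutants (0.92, SE 0.24, adjusted p 0.0252). The difference of Rb1 between double mutants and WT was lost in 6 of 8 leave-one-out fits (-0.82 to -0.69, adjusted p up to 0.129) and without double mutant replicates 2 and 3, while its calls in HER2 mutants against WT, PIK3CA and double mutants held in each leave-one-out fit. Rbl2 in HER2 mutants was lost without WT replicate 1 or 3, and E2f1 without either or without HER2 mutant replicate 1. Without double mutant replicates 2 and 3, double mutants had 2 of these genes higher and 1 lower than WT, and a single replicate left out gave 0 to 1 higher and 1 to 2 lower in HER2 and double mutants.

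Among 29 genes of Trp53 and its targets, which do not include Cdkn1a, 2 were higher and 1 lower in PIK3CA mutants than in WT, 11 higher and 1 lower in HER2 mutants, and 12 higher and 1 lower in double mutants. Their medians were 0.17, 0.70 and 1.04. Trp53 itself had 76.1 to 91.9 CPM in WT and 63.2 to 97.3 CPM in the mutants and did not pass in any pair of genotypes. Eda2r, a receptor gene induced by p53, was higher in HER2 (3.40, SE 0.599, edgeR adjusted p 0.0031) and double mutants (2.88, SE 0.573, adjusted p 0.00407). So was Zmat3, an RNA-binding p53 target (1.89, SE 0.324, adjusted p 0.00273 in HER2 and 1.91, SE 0.316, adjusted p 0.00115 in double mutants). Both were also higher in HER2 than in PIK3CA mutants (1.86, SE 0.498, adjusted p 0.0454 for Eda2r and 1.19, SE 0.286, adjusted p 0.0294 for Zmat3), calls lost in 6 and 5 of 8 leave-one-out fits. Ddit4, an mTORC1 inhibitor, was higher in PIK3CA (1.43, SE 0.372, adjusted p 0.0387), HER2 (1.28, SE 0.37, adjusted p 0.0385) and double mutants (2.21, SE 0.376, adjusted p 0.00141). Gadd45a, whose product can also bind p21, was lower in PIK3CA (-1.60, SE 0.323, adjusted p 0.0084), HER2 (-1.40, SE 0.322, adjusted p 0.0134) and double mutants (-1.04, SE 0.303, adjusted p 0.0347).

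In leave-one-out fits the calls of Eda2r and Zmat3 against WT and of Ddit4 in double mutants held. Gadd45a was lost without WT replicate 3 in the single mutants (adjusted p 0.067 with PIK3CA and 0.0828 with HER2) and in double mutants in 5 of 8 fits, without WT replicate 1 or 3 or double mutant replicate 1, 4 or 5 (-1.26 to -0.84, adjusted p up to 0.195). Ddit4 was lost in 6 of 7 fits in PIK3CA mutants (adjusted p up to 0.182) and in 5 of 7 in HER2 mutants (up to 0.151). The count of higher Trp53 targets in HER2 mutants was 4 to 15 with a single replicate left out: 4 without WT replicate 1, 6 without WT replicate 2, 5 without WT replicate 3, and 8, 12, 5 and 15 without HER2 mutant replicates 1 to 4 in turn. A replicate block gave 6, and a fit of only the groups compared gave 3. In double mutants the count was 9 to 13 without any single replicate and 9 without replicates 2 and 3. In PIK3CA mutants it was 4 with DESeq2 and 9 in a fit of only those groups, and 0 to 2 without a single replicate. Between mutants, 3 of the 29 were higher in double than in PIK3CA mutants (all tested genes 0.309%) and 1 in double than in HER2 mutants (1.03%), and both counts were 0 without double mutant replicates 2 and 3. With 1 replicate left out these counts were 0 to 2 and 1 to 2. HER2 mutants had 4 higher than PIK3CA mutants (all tested genes 2.21%; 1 to 6 without a single replicate). Double mutant replicates 2 and 3 were both above replicates 1, 4 and 5 in 15 of these 29 genes (51.7%, all tested genes 23.2%) and both below in 4. Mdm2, the p53 ubiquitin ligase, was chosen after its values were seen. It had 142 and 162 CPM in those replicates and 98.1 to 106 CPM in the others. HER2 mutants had 122 and 126 CPM with high Cdkn1a against 89.5 and 75 CPM with low Cdkn1a. Because of that choice, this likeness to Cdkn1a is not a test. Trp53 itself went the other way in double mutants. It had 67.3 and 79.8 CPM in replicates 2 and 3 and 85.5 to 97.3 CPM in the others. Over WT, Mdm2 changed by 0.71 (log2) with both mutations (adjusted p 0.0314 by edgeR). With the HER2 mutation alone the change was 0.46 and missed the threshold (adjusted p 0.173).

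**Figure D5:**
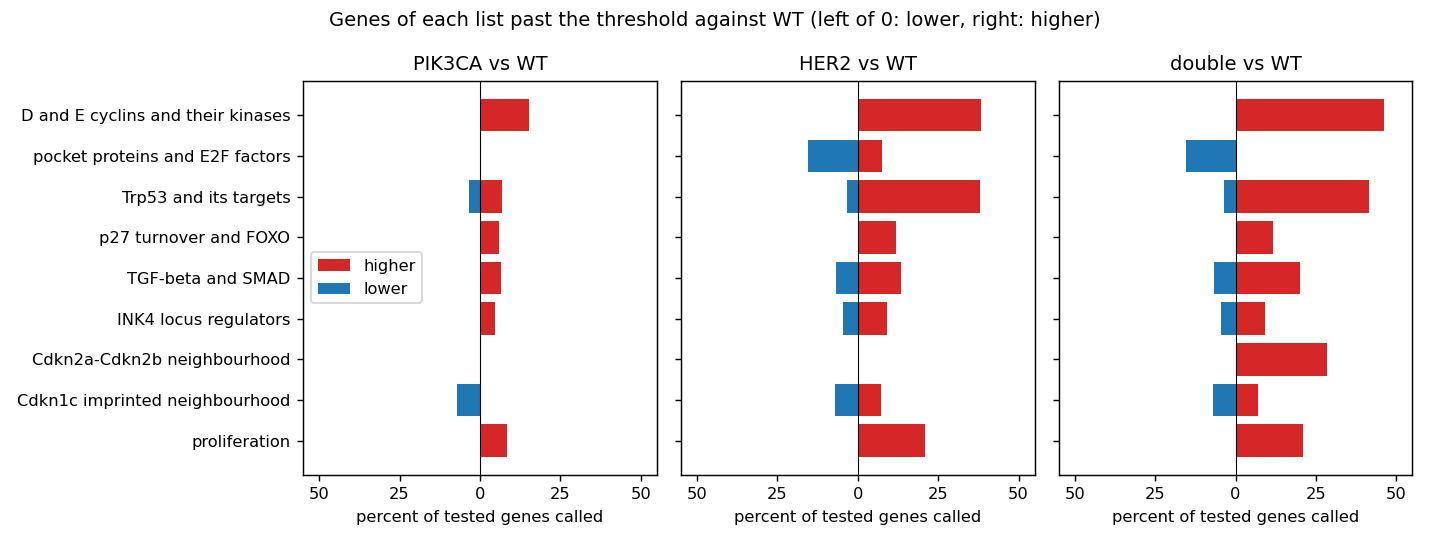
Percent of the tested genes of each list (rows) that passed an edgeR adjusted p of 0.05 against WT, higher to the right of 0 and lower to the left, in PIK3CA, HER2 and double mutants. In double mutants, higher genes reach 12 of 29 for Trp53 and its targets. They reach 6 of 13 for D and E cyclins and their kinases, a list that also holds Ccna2, Ccnh, Cdk7, Cdc25a and Cdc37. The 2 genes of the Cdkn2a-Cdkn2b neighbourhood are Cdkn2a and Cdkn2b themselves.

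Of 17 tested genes known to act on p27, 1 was higher than in WT in PIK3CA mutants (all tested genes 1.49%). In HER2 mutants 2 were higher (4.75%) and in double mutants 2 (5.03%). With a replicate left out these counts were 0, 1 to 2 and 1 to 3. Foxo3, a factor that can drive Cdkn1b, was higher in all 3 (0.69, 0.90 and 0.62, SE 0.187, 0.188 and 0.179, edgeR adjusted p 0.0447, 0.00797 and 0.0336), and only the call in HER2 mutants held in each leave-one-out fit. The call in PIK3CA mutants was lost in all 7 (adjusted p up to 0.164), and that in double mutants without any 1 WT replicate or without replicate 2 or 3 (0.117 at most). Foxo1 was lower in HER2 than in PIK3CA mutants (-1.19, SE 0.242, adjusted p 0.0131) and higher in double than in HER2 mutants (1.14, SE 0.233, adjusted p 0.0194), the latter lost without double mutant replicate 4 or 5 (0.0504 at most). TGF-beta signaling is known to raise Cdkn2b. Its list of 15 genes held TGF-beta, receptor and SMAD genes and also Myc, Zbtb17, Klf4, Klf6 and Sp1. Of these 15, 3 were higher, Myc among them, and 1 lower in double mutants than in WT (0 to 3 and 0 to 1 without a single replicate). Without replicates 2 and 3, 1 was higher and 0 lower. In PIK3CA mutants 1 was higher and 0 lower (0 and 0 without any single replicate), and in HER2 mutants 2 and 1 (2 and 0 to 2). Tgfb2 was higher than in WT in all 3 mutant genotypes: 1.42 with PIK3CA (SE 0.372, adjusted p 0.0403, lost in each of 7 leave-one-out fits), 1.96 with HER2 (SE 0.381, adjusted p 0.00533) and 1.62 with both (SE 0.365, adjusted p 0.00858). Myc, which can hold back Cdkn2b and Cdkn1a, was higher in HER2 (1.67, SE 0.322, adjusted p 0.00504) and double mutants (1.25, SE 0.307, adjusted p 0.0148). It was also higher in HER2 than in PIK3CA mutants (1.23, SE 0.287, adjusted p 0.0254, lost without PIK3CA mutant replicate 1, 2 or 3). Cdkn2b itself did not pass in either single mutant. In double mutants Tgfb3 was lower (-0.85, SE 0.226, adjusted p 0.0234). Without WT replicate 3 the calls of all 3 genes in double mutants were lost, and without WT replicate 1 those of Myc and Tgfb3 (adjusted p up to 0.065 for Tgfb2, 0.089 for Myc and 0.117 for Tgfb3). Tgfb3 was also lost without double mutant replicate 2, and without replicates 2 and 3 together only Tgfb2 of these 3 kept its call.

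Among 22 regulators of the INK4 locus, which include the Polycomb genes that silence it, 1 was higher and 0 lower in PIK3CA mutants than in WT (0 to 1 higher with a replicate left out), 2 and 1 in HER2 mutants (0 to 2 each), and 2 and 1 in double mutants (0 and 3 without replicates 2 and 3). The higher genes in double mutants were Kdm6b, a demethylase of the Polycomb mark (0.60, SE 0.175, edgeR adjusted p 0.0369), and Suz12, a Polycomb subunit (0.55, SE 0.145, adjusted p 0.0221). Ezh1, a Polycomb methyltransferase, was the lower one (-0.58, SE 0.177, adjusted p 0.0429). Kdm6b also passed in HER2 mutants (0.59, SE 0.182, adjusted p 0.0487), a call lost in each of 7 leave-one-out fits. None of the calls in double mutants held without WT replicate 1, 2 or 3 (adjusted p up to 0.151 for Kdm6b, 0.112 for Suz12 and 0.17 for Ezh1). Kdm6b was also lost without double mutant replicate 2 or 3, and Ezh1 without replicate 1, 2, 4 or 5. Of the 7 tested genes in the neighbourhood list of Cdkn2a and Cdkn2b, these 2 members were the only ones to pass in double mutants against WT. With a replicate left out, 0 to 3 were higher. In double against HER2 mutants 0 of the 7 passed, with a median log2 difference of 0.68 (all tested genes -0.02). There, 5 of the 7 had an unadjusted edgeR p under 0.05 (17.8% of all tested genes), these 2 members among them. Around Cdkn1c, 1 of 14 tested genes was higher in double mutants than in WT (Cars, 0.86, SE 0.189, adjusted p 0.00726) and 1 lower (Tspan32, -2.98, SE 0.522, adjusted p 0.00169). Cars also passed in HER2 mutants (0.68, SE 0.194, adjusted p 0.0377, lost in 4 of 7 leave-one-out fits). Tspan32 also passed in PIK3CA (-3.58, SE 0.582, adjusted p 0.00215) and HER2 mutants (-2.01, SE 0.544, adjusted p 0.0297, lost in 3 of 7). Tspan32 had 3.23 ± 3.04 CPM in WT (SD, n = 3) and is known from blood cells, whose markers were also highest in WT.

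Proliferation genes were counted because CDK inhibitors act on the cell cycle. Of 24, 2 were higher than in WT in PIK3CA mutants, 5 in HER2 mutants and 5 in double mutants, none lower, and single replicates left out gave 0 to 2, 1 to 5 and 3 to 5. Bub1b, a mitotic checkpoint gene, was higher than in WT in HER2 (2.10, SE 0.378, edgeR adjusted p 0.00351) and double mutants (1.92, SE 0.366, adjusted p 0.00303). It also passed in PIK3CA mutants, with 8.93 ± 2.13 CPM against 3.38 ± 1.05 in WT (SD, n = 4 and 3, edgeR adjusted p 0.0401), a call lost in 6 of 7 leave-one-out fits. Mki67 had 10.6 to 53 CPM in WT, 43.6 to 108 in PIK3CA mutants, 31.2 to 271 in HER2 mutants and 32.4 to 140 in double mutants. HER2 mutant replicate 1 had the highest Mki67, 271 CPM, with the highest Cdkn1a and Cdkn2c of its genotype. HER2 mutant replicate 3, with 209 CPM of Cdkn1a, had the lowest Mki67 of the genotype, 31.2 CPM. In double mutants, replicates 2 and 3 were both below the others in 17 of these 24 genes (70.8%, all tested genes 24.3%), and they had more Cdkn1a and less Cdkn2a than the others.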

How the data were processed

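RNA was measured in 16 organoid samples, grouped by the genotype in their labels. Per the submitters' processing notes, the authors used bcl2fastq 2.20, STAR 2.0.4b, featureCounts 1.4.5, DESeq2 1.33.5 and build mm10; strandedness, annotation and filters are not given in the sources used here. The authors deposited whole-number counts per gene, and normalized values, treated here as signal, each a count times a constant of its sample (checked to a relative spread of 9.93e-10). Of 55774 entries, 287 identical repeats were dropped.

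Counts were tested with edgeR 4.0.16 in R 4.3.3 (TMM, filterByExpr, quasi-likelihood test, two-sided) with the 16 samples fitted together and genotype as the sole term, and Benjamini-Hochberg adjusted over the 24252 genes within each comparison, threshold 0.05. An SE is the log2 fold change over the square root of F. Log2 CPM used a prior count of 2. DESeq2 1.42.0 and limma 3.58.1 (deposited normalized values plus 1) were alternatives, as were other scalings, no filter, single replicates left out, a replicate block and a GC and length offset. The script was tested on simulated counts. Positions come from GENCODE M21 (GRCm38). Correlations were tested by exact permutation, and the deviations with 100000 resamples within genotypes.

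Replicates of a genotype differed beyond sampling noise, and depth was 45545182 to 64168308 counts. The members and lists were chosen with earlier results of these data known. From each list and pair of genotypes, up to 2 genes called with the largest change in each direction could be named, with Erbb2, Pik3ca, Ccnd1 and Trp53, and for each member the 3 genes with the highest correlation among those with a mean log2 CPM of at least 1. Leaving out double mutant replicates 2 and 3 together was chosen after seeing the data. Summed levels of the other marker lists (luminal, lymphocyte, endothelium, adipocyte) were computed and are not compared here.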

Additional observations from a re-analysis of the deposited data

Results flagged for a closer look

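Cdkn2c in HER2 mutant replicate 1 was 7.71 CPM, against 4.11 to 4.57 CPM in the other 3 HER2 mutants. Dixon's test for a single distant sample, on log2 CPM, marked it narrowly, with a ratio of 0.834 against a critical value of 0.829. The test was run on 24 groups, and chance marks about 1 in 20 groups.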

How the results depend on the processing

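Of 910 fold changes of members under the alternatives, 840 kept their direction and their side of the threshold, 21 fell below it, 12 rose past it and 37 changed sign; the cause was not tested. No fold change that changed sign had passed the threshold. The number of members past it in PIK3CA mutants against WT was 2 with DESeq2 and 3 in a fit of only the groups compared (0 to 1 with a replicate left out). In HER2 mutants against WT it was 0 in a fit of only the groups compared, 0 with the replicate block (Cdkn1a 2.35, adjusted p 0.0556) and 0 to 2 with a replicate left out. In double mutants against WT it was 1 to 3 with a replicate left out and 3 otherwise. In double against HER2 mutants it was 1 with DESeq2 and 0 to 1 with a replicate left out, and in double against PIK3CA mutants 2 in a fit of only the groups compared. In HER2 against PIK3CA mutants it was 0 with median-of-ratios scaling, 0 with upper-quartile scaling, 0 without the low-count filter, 0 in a fit of only the groups compared, 0 with the replicate block, 0 with that block plus a GC and length offset, and 0 to 1 with a replicate left out. Correlations of same-numbered deviations were -0.163 to 0.273 over the pairs of genotypes, which cannot settle whether replicate numbers pair the samples. For 2 of 4 HER2 mutants the most similar double mutant had the same number. The replicate block changed no other call of a member. The correlation of Cdkn1a and Erbb2 with the HER2 mutation was -0.07 without the 2 farthest samples, -0.08 without double mutant replicates 2 and 3 and -0.10 to 0.30 with a sample left out; of deviations it was 0.50 to 0.69.

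Log2 differences that changed sign were those of Cdkn1b in HER2 mutants against WT (0.01 with upper-quartile scaling, 0.02 with the GC and length offset, -0.21 to 0.16 with a replicate left out) and of Cdkn2b in HER2 against PIK3CA mutants (0.02 with upper-quartile scaling, -0.18 to 0.21). Cdkn2c in double mutants against WT was 0.00 with limma, 0.05 with the replicate block, 0.04 with the GC and length offset and 0.13 with both (-0.23 to 0.13 with a replicate left out), and Cdkn1c was -0.19 with limma. Without double mutant replicates 2 and 3, Cdkn1b was -0.21 against WT and -0.17 against HER2 mutants, and Cdkn1c -0.77 against WT, -0.69 against HER2 mutants, -0.45 against PIK3CA mutants and -0.37 in the interaction. With a replicate left out, Cdkn1c was -0.81 to 0.16 in HER2 and -0.23 to 0.22 in double mutants against WT, -0.16 to 0.83 in double against HER2 and -0.50 to 0.48 in HER2 against PIK3CA mutants. Likewise, Cdkn1b was -0.07 to 0.17 in double mutants against WT and -0.07 to 0.31 against HER2 mutants, and Cdkn2a -0.08 to 0.49 in HER2 against PIK3CA mutants and -0.76 to 0.62 in the interaction. Depth limits Cdkn1c, at 30 to 129 counts per sample.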
